A study of Saccharomyces cerevisiae with 5 samples.

Results

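The mitochondrial pyruvate carrier of Saccharomyces cerevisiae is described here through its subunit genes MPC1, MPC2 and MPC3, taken by symbol from both deposited expression tables, where 3 of 3 were found among 5886 genes. They were chosen because their levels in these same libraries had drawn attention, so their levels and differences are given as a description, without a test. RNA was sequenced from 3 libraries of a SUL1 knockout of BY4741, labelled SUL1 mutant and sampled at an optical density (OD600) of 0.6, and from 2 libraries of the wild-type control, for which no density is given. SUL1 encodes a plasma-membrane permease that imports sulfate with high affinity, and the study asked how its loss extends replicative lifespan. Both groups share the S288C background of BY4741, a haploid of mating type a that lacks MET17, and grew at 30 °C in YPD with 2% glucose, 2% peptone and 1% yeast extract. Each library is a biological replicate by its title, and nothing in the labels says whether the knockout was 1 clone. The design text speaks of 3 replicates in each group, whereas the sample labels list 2 for the wild type.

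Pyruvate made by glycolysis in the cytosol enters the mitochondrial matrix through this carrier, a complex of small proteins in the inner membrane. Mpc1 is the constant partner. It pairs with Mpc2 in cells that ferment sugar and with Mpc3 in cells that respire, and MPC2 and MPC3 are paralogs. In the matrix, pyruvate feeds the pyruvate dehydrogenase complex and the synthesis of branched-chain amino acids.

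The genes have a single coding exon each, on the forward strand of build R64. MPC1 (YGL080W) spans 358636 to 359028 of chromosome VII, MPC2 (YHR162W) 423072 to 423461 of chromosome VIII, and MPC3 (YGR243W) 977336 to 977776 of chromosome VII. Their coding lengths of 393, 390 and 441 bp are close to one another, and no annotated gene overlaps them. The coding sequences of MPC2 and MPC3 were identical at 72.7% of 388 aligned bases. Their longest exact run in common was 14 bases, TTTGTCATCAAGCC, at coding positions 205 to 218 of both genes (chrVIII:423276-423289 and chrVII:977540-977553, forward strand, all bases shared). A fragment longer than this run cannot match both coding sequences exactly. MPC1 was identical to MPC2 at 54.0% and to MPC3 at 58.1% of aligned bases.

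The window from 250 bases before to 50 bases after the start codon is shown for each gene, since the alternative subunits are known for different growth conditions, and capitals mark the CCAAT motif on either strand (CCAAT or ATTGG). This motif is the core of the site read by the Hap2/3/4/5 activator of respiratory genes. The windows lie at chrVII:358386-358685 for MPC1, chrVIII:422822-423121 for MPC2 and chrVII:977086-977385 for MPC3 of R64, forward strand.
MPC1: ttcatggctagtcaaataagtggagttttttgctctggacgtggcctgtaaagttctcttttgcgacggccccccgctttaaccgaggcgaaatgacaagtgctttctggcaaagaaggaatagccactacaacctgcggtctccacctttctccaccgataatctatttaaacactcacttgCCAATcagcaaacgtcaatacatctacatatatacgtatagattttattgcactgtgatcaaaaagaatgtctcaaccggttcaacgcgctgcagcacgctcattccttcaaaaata
MPC2: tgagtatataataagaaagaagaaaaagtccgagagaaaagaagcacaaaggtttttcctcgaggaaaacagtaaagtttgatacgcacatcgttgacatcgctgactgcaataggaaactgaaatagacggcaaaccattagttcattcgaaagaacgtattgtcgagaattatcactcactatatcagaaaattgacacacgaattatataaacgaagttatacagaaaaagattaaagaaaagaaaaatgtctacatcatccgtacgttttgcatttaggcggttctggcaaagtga
MPC3: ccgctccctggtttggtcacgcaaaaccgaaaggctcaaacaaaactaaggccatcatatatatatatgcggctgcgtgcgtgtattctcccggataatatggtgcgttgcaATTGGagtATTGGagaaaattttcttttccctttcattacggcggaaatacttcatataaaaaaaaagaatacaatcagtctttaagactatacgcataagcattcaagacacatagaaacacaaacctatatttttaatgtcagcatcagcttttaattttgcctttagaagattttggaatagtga
MPC3 held the motif at 2 places, on the reverse strand, beginning 138 and 130 bases before the start codon. MPC1 held it once, 67 bases before the start codon, and MPC2 did not hold it. Of 5882 windows of the same length, 43.4% held at least 1 CCAAT motif. The stress response element AGGGG (21.5% of windows) and the carbon source response element of gluconeogenic genes (10.2% of windows) were searched on both strands, and neither was in any of the 3 windows. Over the 500 bases before the start codon, AGGGG occurred in all 3 genes and in 34.1% of 5881 such stretches, and CCAAT occurred 4 times before MPC3, 2 times before MPC1 and not before MPC2, with 62.6% of such stretches holding it. These shares count stretches with at least 1 match, and none was computed for as many matches as MPC3 held. These are letter matches and not binding sites.

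The deposited values are FPKM, fragments per kilobase of transcript, scaled by each library's own fragment total. Steps between low values gave an estimated depth of 24650000 to 24850000 fragments per knockout library and of 22500000 to 25050000 per wild-type library. SUL1 itself had 0 FPKM in every knockout library, where 0 fragments allow a level of at most 0.05 FPKM (the worth of 3 fragments, counting error only), against 8.28 and 9.78 FPKM in wild-type replicates 1 and 2. The pheromone receptor STE2 of mating type a had 114.64 to 142.80 FPKM in the knockout and 131.47 to 145.46 FPKM in the wild type. STE6 and BAR1 of mating type a had 11.84 to 18.88 and 8.60 to 14.03 FPKM in the knockout. In the wild type they had 14.37 to 19.23 and 11.01 to 16.95 FPKM. Of mating type alpha, MF(ALPHA)1 stayed at or below 0.23 FPKM in the knockout and 0.80 FPKM in the wild type. MF(ALPHA)2 had 6.12 to 8.44 FPKM in the knockout and 4.97 to 7.60 FPKM in the wild type. STE3 of mating type alpha had 9.74 to 11.76 FPKM in the knockout and 8.38 to 11.58 FPKM in the wild type. MFA1 and MFA2 were not analysed here. Knockout replicate 2 stood apart from knockout replicates 1 and 3: 896 of 5712 genes tested, 15.7%, were called between the strains without it, and 15, or 0.263%, with it (limma on log2(FPKM + 1), Benjamini-Hochberg adjusted p under 0.05).

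Transcript levels followed the same order in all 5 libraries, with MPC2 highest, MPC1 next and MPC3 lowest. Of the alternative subunits, the transcript of the fermenting form thus prevailed in both strains. Protein was not measured. MPC2 had 1691.81, 1422.33 and 1469.63 FPKM in knockout replicates 1, 2 and 3, against 1219.05 and 1258.61 FPKM in wild-type replicates 1 and 2. All 3 knockout libraries lay above both wild-type libraries. The means were 1528 ± 144 FPKM in the knockout (SD, n = 3), against 1239 ± 28.0 FPKM in the wild type (SD, n = 2), a difference of 0.30 on the log2(FPKM + 1) scale, or 0.16 once a trend with coding length was removed. By its mean level MPC2 stood above 96.3% of the genes tested.

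MPC1, the partner common to both forms of the carrier, varied least. It had 170.63, 166.40 and 165.86 FPKM in knockout replicates 1, 2 and 3, against 163.47 and 149.94 FPKM in wild-type replicates 1 and 2. The groups did not overlap, but the lowest knockout and the highest wild-type library were closer than their counting intervals, 155.98 to 176.04 FPKM for knockout replicate 3 and 153.47 to 173.86 FPKM for wild-type replicate 1 (95% exact Poisson intervals on estimated fragments, counting error only). The log2 difference of 0.10 turned to -0.04 with the length trend removed, so no direction is given for MPC1.

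MPC3, the subunit of respiring cells, differed most, and differed as much among the knockout libraries as between the strains. It had 95.72, 22.75 and 66.66 FPKM in knockout replicates 1, 2 and 3, against 12.37 and 21.34 FPKM in wild-type replicates 1 and 2. Knockout replicates 1 and 3 stood well above the wild type, whereas knockout replicate 2 lay beside wild-type replicate 2. The counting intervals of these neighbouring libraries overlapped, at 19.48 to 26.55 FPKM for knockout replicate 2 (about 167 fragments) and 18.04 to 25.21 FPKM for wild-type replicate 2 (about 143 fragments). The groups therefore did not overlap as listed, but by less than the counting error. Within the knockout the highest library had 4.21 times the level of the lowest, and within the wild type 1.73 times.

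**Figure D1:**
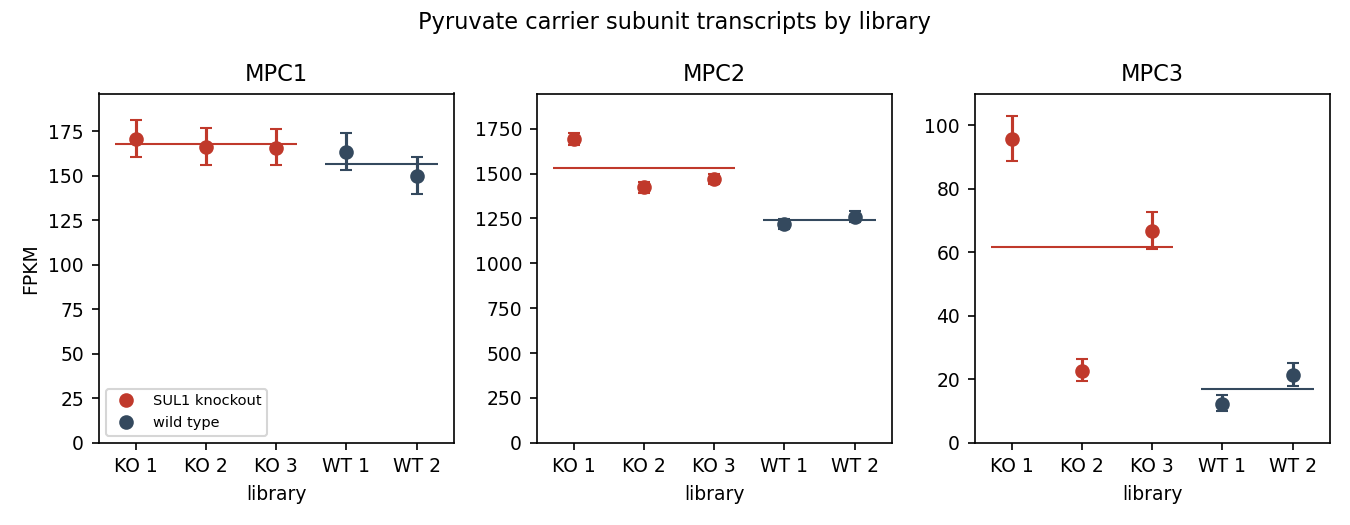
FPKM of MPC1, MPC2 and MPC3 (vertical axes from 0, a scale of its own per panel) in the 3 SUL1 knockout (KO, red) and 2 wild-type (WT, dark) libraries. Points are libraries, bars are 95% Poisson intervals on estimated fragments and lines are group means; knockout replicate 2, at 22.75 FPKM of MPC3, sits beside the wild type at 12.37 and 21.34 FPKM.

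The MPC3 means were 61.7 ± 36.7 FPKM in the knockout (SD, n = 3), against 16.9 ± 6.34 FPKM in the wild type (SD, n = 2), a difference of 1.64 on the log2(FPKM + 1) scale. Of the 5712 genes tested, 4 had a larger positive difference. Without knockout replicate 2 the knockout mean was 81.2 ± 20.5 FPKM (SD, n = 2) and the difference 2.23. Knockout replicate 2 alone was 0.46 above the wild-type mean on this scale, where the wild-type libraries had an SD of 0.52. In a bulk sample, a change in every cell and a change in the share of cells that express MPC3 cannot be told apart. All 3 subunits lay higher in every knockout than in every wild-type library, as did 13.1% of all genes tested, and nothing is read from this count because the genes were chosen on these values.

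At the transcript level, MPC3 was a small part of its pair with MPC2 in every library. MPC3 made up 5.35%, 1.57% and 4.34% of the summed FPKM of MPC2 and MPC3 in knockout replicates 1, 2 and 3, against 1.00% and 1.67% in wild-type replicates 1 and 2. Knockout replicate 2 lay between the wild-type libraries, so the groups overlapped. The mean share was 3.76% ± 1.96 in the knockout (SD, n = 3), against 1.34% ± 0.469 in the wild type (SD, n = 2), a difference of 2.42 percentage points. Without knockout replicate 2 the difference was 3.51 percentage points, and without knockout replicate 1 it was 1.62. MPC2 was not lower where MPC3 was higher: MPC2 was highest in knockout replicate 1, where MPC3 was highest too. The sum of both was 1445 to 1788 FPKM in the knockout, against 1231 to 1280 FPKM in the wild type.

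Relative to the common partner, MPC2 transcript stood at 9.92, 8.55 and 8.86 times the FPKM of MPC1 in knockout replicates 1, 2 and 3, against 7.46 and 8.39 times in wild-type replicates 1 and 2. MPC3 stood at 0.561, 0.137 and 0.402 times MPC1 in the knockout, against 0.0757 and 0.142 times in the wild type. MPC3 was below its partner in all 5 libraries, while MPC2 exceeded it several-fold in both strains.

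The MPC3 share was set beside 9 other pairs of isoenzymes or isoforms. Most have a member known from respiring, oxygen-poor or glucose-poor cells, but PDC5 with PDC1 does not. That member is not always the first, as the mitochondrial citrate synthase CIT1 is the second of its pair. In 5 of all 10 pairs the share of the first member was higher in every knockout than in every wild-type library. No background over other gene pairs was computed, and nothing is read from this count. COX5B, the oxygen-poor form of a cytochrome c oxidase subunit, made up 65.1% to 73.0% of its pair with COX5A in the knockout, against 57.2% to 62.0% in the wild type. CYC7, which encodes the cytochrome c isoform known as the minor one in cells grown with oxygen, was the more abundant transcript here and made up 84.3% to 89.3% of its pair with CYC1 in the knockout, against 74.9% to 79.0% in the wild type. The hexokinase HXK1 made up 33.8% to 36.7% of its pair with HXK2 in the knockout, against 30.9% to 32.1% in the wild type. The acetyl-CoA synthetase ACS1 made up 6.97% to 8.16% of its pair with ACS2 in the knockout, against 5.98% to 6.41% in the wild type, and the pyruvate kinase PYK2 made up 0.311% to 0.341% of its pair with CDC19 in the knockout, against 0.264% to 0.301% in the wild type. MPC3 was not among these 5. The shares also overlapped for AAC3 with PET9, CIT2 with CIT1, PDC5 with PDC1 and ADH2 with ADH1. No test was made of these shares. A higher share can come from either gene of a pair. ACS1 and PYK2 had log2 differences of 0.07 and 0.06 with overlapping groups, beside -0.22 for ACS2 and -0.15 for CDC19. HXK1 itself had 0.31.

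**Figure D2:**
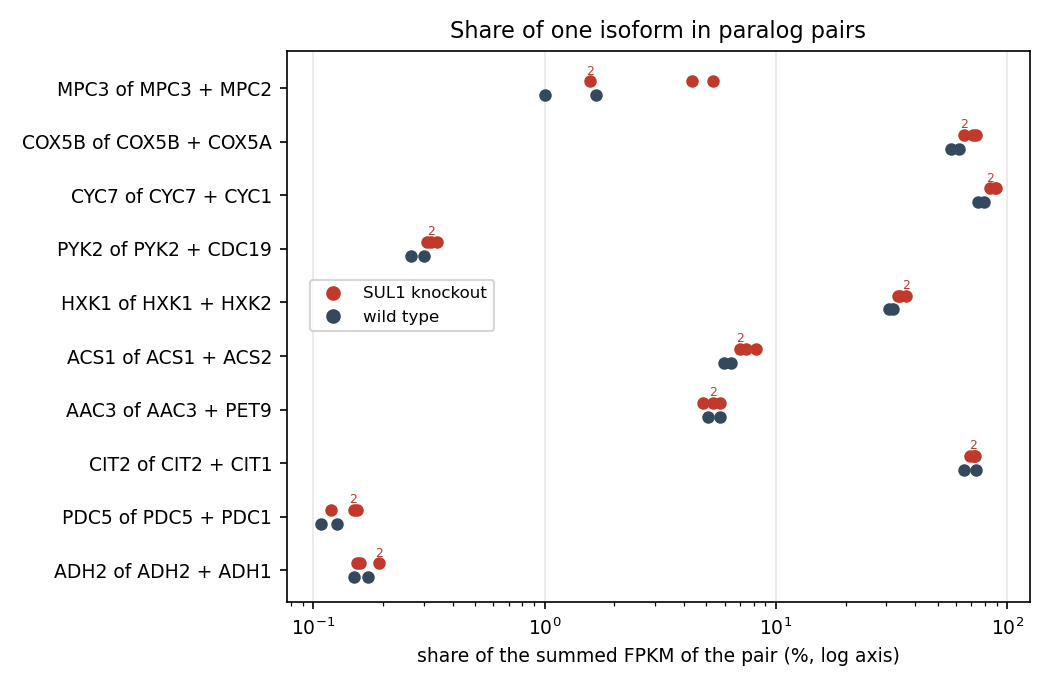
Share of the first gene in the summed FPKM of each of 10 paralog pairs (horizontal, percent, log axis), with SUL1 knockout libraries in red above wild-type libraries in dark; the digit 2 marks knockout replicate 2. The MPC3 share spans 1.57% to 5.35% in the knockout, 3.401 times from lowest to highest. No other pair spans more than 1.303 times there, but a share has a ceiling. Pairs with a large share, such as CYC7 and COX5B, can therefore span less by this measure.

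Genes that handle pyruvate or its products on either side of the carrier were taken from 4 lists with 42 members, all of which were tested. None of the 42 was called in either direction, where 0.193% of all genes tested were called higher in the knockout and 0.0700% lower (limma, Benjamini-Hochberg). At an unadjusted p under 0.05 there were 13 of the 42, against 18.6% of all genes (6.92% higher and 11.6% lower). Without knockout replicate 2, 4 of the 42 were called higher and 5 lower, where 5.22% of all genes were called higher and 10.5% lower. The median log2 difference of the 42 was -0.05, beside -0.07 for all genes tested. A further list held 30 inner-membrane carriers of other metabolites, of which 0 were called with all libraries and 4 had an unadjusted p under 0.05 (limma).

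The pyruvate dehydrogenase complex, which turns matrix pyruvate into acetyl-CoA, was listed with the kinases, phosphatases and lipoylation enzymes that set its activity. Its median log2 difference was -0.07 over 13 genes, 2 of them positive, where 37.4% of all genes tested were positive. LAT1, the core acetyltransferase, had 352.02 to 375.79 FPKM in the knockout and 385.28 to 435.12 FPKM in the wild type, without a call (limma, adjusted p = 0.342). LIP5, the lipoic acid synthase, had the largest difference of the list, -0.37 ± 0.10 (SE, limma, adjusted p = 0.176). It passed the threshold without knockout replicate 2 (limma, adjusted p = 0.0466). GCV3, a lipoyl carrier protein of the glycine cleavage system through which lipoate reaches the complex, had 2306.23 to 2659.68 FPKM in the knockout and 2176.09 to 2321.64 FPKM in the wild type (0.17 ± 0.10 SE, limma, adjusted p = 0.374).

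Genes that form, decarboxylate or carboxylate pyruvate outside the matrix, or carry it into cells, had a median log2 difference of 0.03 over 10 genes. The main pyruvate kinase CDC19 had 8798.99 to 9730.55 FPKM in the knockout and 10207.65 to 10536.87 FPKM in the wild type (-0.15 ± 0.09 SE, limma, adjusted p = 0.400). PDC1, the main pyruvate decarboxylase, had 5614.80 to 6654.72 FPKM in the knockout and 6813.41 to 6990.70 FPKM in the wild type (limma, adjusted p = 0.340). Of the pyruvate carboxylases, PYC2 had -0.40 ± 0.10 (SE, limma, adjusted p = 0.169), which passed the threshold without knockout replicate 2 (limma, adjusted p = 0.0324). With the length trend removed its difference was -0.15. PYC1 had 39.18, 21.06 and 38.00 FPKM in knockout replicates 1, 2 and 3, against 18.71 and 33.06 FPKM in wild-type replicates 1 and 2, so its groups overlapped. The minor decarboxylase PDC6 was low, at 2.18 to 3.46 FPKM in the knockout and 1.66 to 1.70 FPKM in the wild type (0.49 ± 0.22 SE, limma, adjusted p = 0.288).

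The route that bypasses the carrier, by way of acetaldehyde and acetate, had a median of 0.21 over 8 genes. Of these, 6 were positive, beside 37.4% of all genes tested. ALD3, a cytosolic aldehyde dehydrogenase induced by stress, had 23.86, 26.86 and 20.71 FPKM in knockout replicates 1, 2 and 3, against 13.46 and 13.08 FPKM in wild-type replicates 1 and 2. All knockout libraries were above the wild type, and the difference of 0.79 ± 0.13 (SE) missed the threshold (limma, adjusted p = 0.0799), which it passed with median-ratio scaling. The mitochondrial enzymes ALD4 and ALD5 had differences of opposite sign, 0.34 ± 0.10 and -0.48 ± 0.13 (SE, limma, adjusted p = 0.182 and 0.179). Without knockout replicate 2, ALD3 and ALD4 were called higher and ALD5 lower (limma, adjusted p = 0.0106, 0.0344 and 0.0489). ALD5 had -0.27 without wild-type replicate 2 and -0.69 without wild-type replicate 1.

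Matrix genes that use pyruvate, form it or act on its products had a median of -0.26 over 11 genes. CIT1, the mitochondrial citrate synthase, had 193.77, 144.15 and 189.93 FPKM in knockout replicates 1, 2 and 3, against 123.63 and 128.70 FPKM in wild-type replicates 1 and 2 (0.46 ± 0.14 SE, limma, adjusted p = 0.189). Knockout replicate 2 was its lowest knockout library and lay above both wild-type libraries, as for MPC3. LEU9, an isopropylmalate synthase of leucine synthesis, and MAE1, the malic enzyme that forms pyruvate inside the matrix, had -0.47 ± 0.12 and -0.42 ± 0.13 (SE, limma, adjusted p = 0.169 and 0.196). Without knockout replicate 2, CIT1 and the alanine transaminase ALT1 were called higher, and LEU9 and MAE1 lower (limma, adjusted p = 0.00633, 0.0186, 0.0146 and 0.00900). With the length trend removed MAE1 had -0.27.

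The other metabolite carriers of the inner membrane, which belong to a protein family unrelated to the Mpc proteins, had a median of -0.05 over 30 genes, with values between -0.45 and 0.36. The oxodicarboxylate carrier ODC2 had -0.45 ± 0.16, the GTP/GDP carrier GGC1 -0.37 ± 0.11 and the carnitine carrier CRC1 0.36 ± 0.17 (SE, limma, adjusted p = 0.226, 0.182 and 0.304). Without knockout replicate 2, the copper and phosphate carrier PIC2 was called higher and the iron transporter MRS4 lower (limma, adjusted p = 0.0345 and 0.0266).

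**Figure D3:**
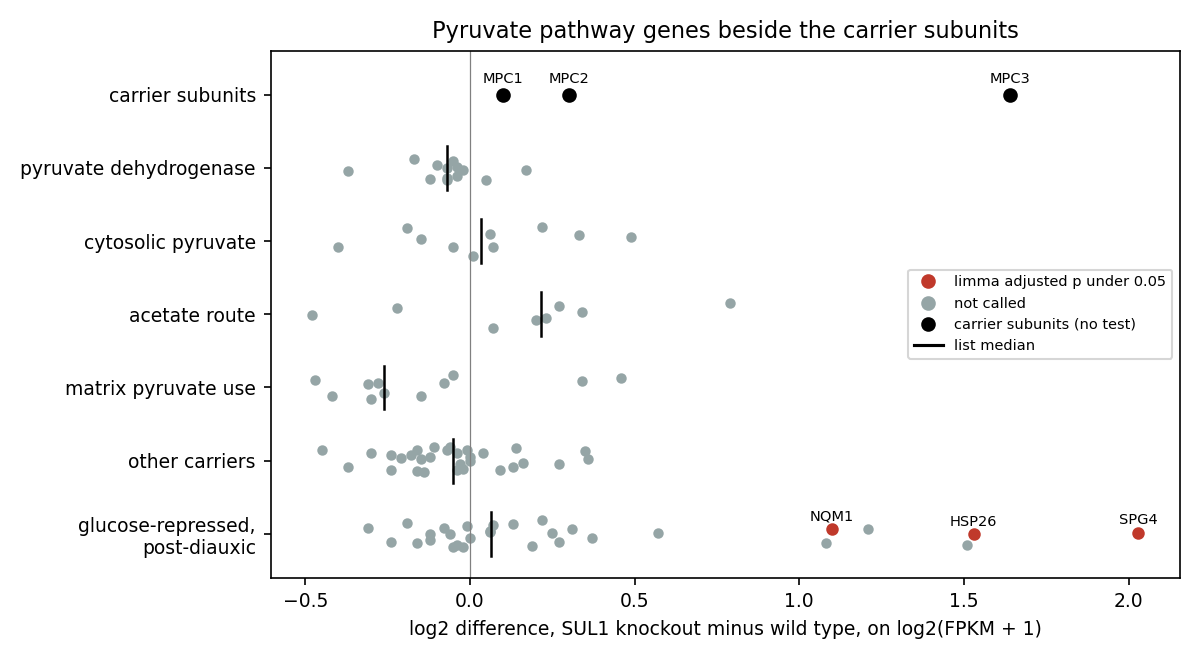
Log2 difference, SUL1 knockout minus wild type on log2(FPKM + 1), for the 3 carrier subunits (black, no test) and for the genes of 6 lists (grey, or red where called by limma), with list medians as vertical bars. The 4 lists of pyruvate genes lie between -0.48 and 0.79, the other carriers between -0.45 and 0.36, and SPG4, HSP26 and NQM1 are the called genes, at 2.03, 1.53 and 1.10.

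Markers of glucose repression and of the phase after glucose runs out were listed because MPC3 is known from respiring cells, and because the labels state a culture density for one strain only. Their median log2 difference was 0.07, with 18 of the 30 positive, where 37.4% of all genes tested were positive. Their summed level was 1912 to 2145 FPKM in the knockout and 1336 to 1379 FPKM in the wild type, most of the gap coming from HSP12, HSP26, GLK1 and HXK1, and none of the 30 was at 0 throughout a group. Of the 30, 3 were called higher and 0 lower, beside 0.193% and 0.0700% of all genes (limma). These were SPG4, a stationary-phase gene, HSP26, a small heat-shock chaperone, and NQM1, a transaldolase, at 2.03 ± 0.22, 1.53 ± 0.14 and 1.10 ± 0.12 (SE, limma, adjusted p = 0.0316, 0.0164 and 0.0257). All 3 lost the call without knockout replicate 3 or without either wild-type replicate. SPG4 and NQM1 also lost it without knockout replicate 1, and SPG4 with equal FPKM sums and with the length trend removed. Over all settings tried the log2 differences were 1.85 to 2.24 for SPG4, 1.39 to 1.67 for HSP26 and 1.01 to 1.19 for NQM1. Without knockout replicate 2, 8 of the 30 were called higher and 1 lower (limma). Of all genes tested, 5.22% were called higher and 10.5% lower there.

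Genes of growth without sugar were also among the 30. The alcohol dehydrogenase ADH2 had 19.97 to 23.55 FPKM in the knockout and 20.16 to 22.89 FPKM in the wild type, and the lactate and pyruvate permease JEN1 had 9.87 to 15.05 FPKM in the knockout and 10.79 to 13.64 FPKM in the wild type. FBP1 and PCK1 of gluconeogenesis had log2 differences of 0.00 ± 0.20 and 0.19 ± 0.18, and ICL1 and MLS1 of the glyoxylate cycle -0.24 ± 0.16 and -0.16 ± 0.20 (SE), without a call. These 6 genes were picked from the list after their values were seen. Others without a call included IDP2, SFC1 and CYB2 at 0.25, 0.27 and 0.22, and ADY2 and GUT1 at -0.31 and -0.12. SUC2 had -0.12, and was the list gene called lower without knockout replicate 2 (-0.39, limma, adjusted p = 0.0301). Knockout replicate 2 had the lowest knockout level for 10 of the 30, and for 31.6% of all genes tested. HSP12, a small membrane-protecting heat-shock protein, was highest in that library, with 313.18, 412.55 and 256.50 FPKM in knockout replicates 1, 2 and 3, against 95.67 and 131.82 FPKM in wild-type replicates 1 and 2. The part of growth phase in the MPC3 values was not tested.

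Other genes were ranked by how closely their profile over the 5 libraries followed each subunit, as the root mean square difference between log2(FPKM + 1) values centred on the gene's own mean, among 5047 genes whose mean reached 10 FPKM. The nearest to MPC3 were YJL133C-A, ARO10 and ZRT1, at 0.391, 0.417 and 0.430, where the median over all candidates was 1.10. This measure grows with how much a gene itself varies, so its values cannot be compared between the subunits. ARO10, a decarboxylase of aromatic amino acid breakdown, had 206.23, 70.71 and 203.17 FPKM in knockout replicates 1, 2 and 3, against 53.49 and 110.37 FPKM in wild-type replicates 1 and 2. ZRT1, the high-affinity zinc transporter, had 113.22, 63.12 and 144.45 FPKM in knockout replicates 1, 2 and 3, against 32.93 and 38.55 FPKM in wild-type replicates 1 and 2. In these genes, too, knockout replicates 1 and 3 were high and knockout replicate 2 was closer to the wild type. None of the 3 was called (limma, adjusted p = 0.226, 0.463 and 0.182). The values of all 3 are those of the libraries that set MPC3 apart, so they are no separate evidence for a difference between the strains.

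The nearest to MPC2 were REV7, a subunit of a DNA polymerase, ALD4 of the acetate route and the methylglyoxal reductase GRE2. They lay at 0.030, 0.032 and 0.034, with a median of 0.23 over all candidates. ALD4 had 87.03, 75.86 and 77.79 FPKM in knockout replicates 1, 2 and 3, against 60.93 and 64.97 FPKM in wild-type replicates 1 and 2. MPC1 was followed most closely by TVP38, INP1 and MSS18, at 0.011, 0.015 and 0.016, with a median of 0.15 over all candidates. As MPC1 hardly varied, these are genes whose levels hardly varied either.

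**Figure D4:**
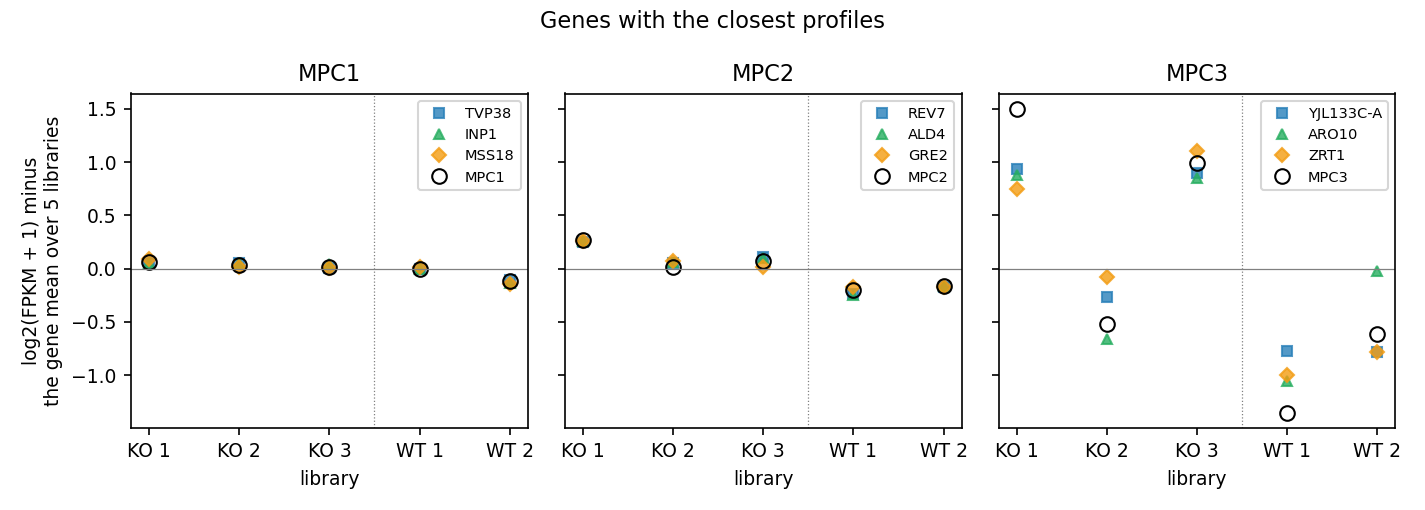
Level of each subunit (open circles) and of the 3 genes with the closest profile, as log2(FPKM + 1) minus the gene's mean over the 5 libraries (vertical axis), in knockout (KO) and wild-type (WT) libraries. The nearest genes lie within 0.011 to 0.034 (root mean square) of MPC1 and MPC2 and 0.391 to 0.430 from MPC3. The measure grows with a gene's own variation, and MPC3, high in knockout replicates 1 and 3, varies most.

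MPC2 and MPC3 lie in matching chromosome neighbourhoods, a remnant of the duplication of the yeast genome, with KEL1, PEX18 and YAP1801 upstream of MPC2 and SOL3 downstream, and their paralogs KEL2, PEX21 and YAP1802 upstream of MPC3 and SOL4 downstream. The nearest genes varied little. YAP1802, 754 bp upstream on the opposite strand, had 38.31, 36.91 and 38.52 FPKM in knockout replicates 1, 2 and 3, against 38.76 and 38.83 FPKM in wild-type replicates 1 and 2. LSC2, a subunit of succinyl-CoA ligase 259 bp downstream on the opposite strand, had 148.91 to 160.30 FPKM in the knockout and 152.78 to 165.83 FPKM in the wild type. Neither was called (limma, adjusted p = 0.858 and 0.885).

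Farther off, the uncharacterised frame YGR240C-A, 2558 bp upstream of MPC3, had 22.95, 19.35 and 19.45 FPKM in knockout replicates 1, 2 and 3, against 10.17 and 8.92 FPKM in wild-type replicates 1 and 2, and was called higher (1.03 ± 0.13 SE, limma, adjusted p = 0.0349). The call was lost without knockout replicate 1, knockout replicate 3 or either wild-type replicate, with equal FPKM sums and with the length trend removed (log2 difference 0.76 to 1.12, limma, adjusted p = 0.0523 to 0.455). Its knockout libraries were alike, unlike those of MPC3. SOL4, a 6-phosphogluconolactonase 8195 bp downstream, had 208.44 to 247.43 FPKM in the knockout and 152.24 to 162.11 FPKM in the wild type (0.53 ± 0.10 SE, limma, adjusted p = 0.111). Its paralog SOL3, 262 bp downstream of MPC2, had 412.05 to 458.53 FPKM in the knockout and 424.59 to 432.23 FPKM in the wild type (0.01 ± 0.09 SE, limma, adjusted p = 0.960). YAP1801, 785 bp upstream of MPC2, had 0.05 ± 0.10 (SE, limma, adjusted p = 0.771). Next to MPC1, YGL081W and KXD1 had -0.13 ± 0.16 and 0.16 ± 0.10 (SE, limma, adjusted p = 0.666 and 0.387). YGR240C-A and the farther genes were chosen after their values were seen.

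**Figure D5:**
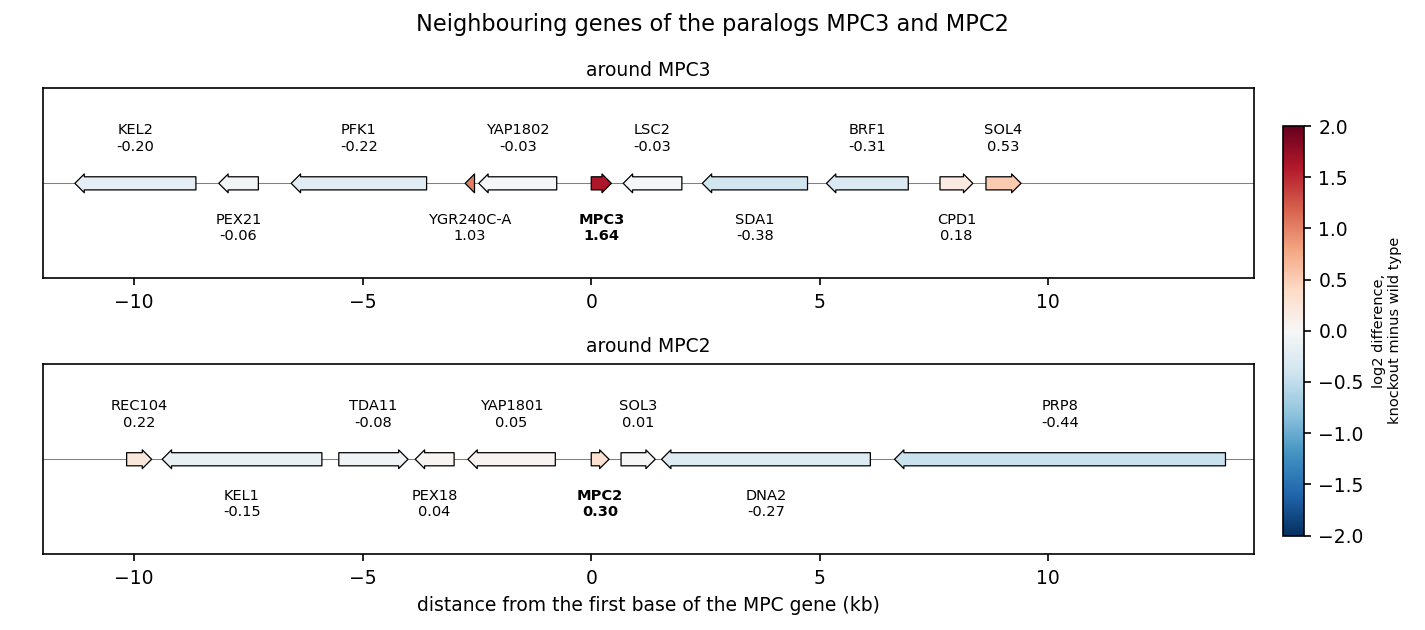
Genes within 10 kb of MPC3 (above) and MPC2 (below), drawn to scale as arrows by distance in kb from the first base of the MPC gene and coloured by log2 difference, SUL1 knockout minus wild type, which is also printed. YAP1802 and LSC2 on either side of MPC3 stand at -0.03 each, beside 1.64 for MPC3 itself.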

How the data were processed

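The members and gene lists were chosen with earlier results of these data known. The deposited FPKM, one table per strain, were used as given, per the file headers. The submitters' processing notes name build R64 and, without roles, DESeq2 1.4.5, RSEM 1.3.1, HISAT2 2.1.0 and Bowtie2. Annotation, read length and strand setting: not given in the sources used here. Of 5886 gene identifiers 5883 matched R64, which gave positions and coding lengths, and sequences came from RefSeq R64.

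The 5712 genes whose mean reached 1 FPKM were tested with limma 3.58.1 (R 4.3.3) on log2(FPKM + 1), which understates differences of low genes, with genotype alone, a trended and robust prior, and Benjamini-Hochberg adjustment at 0.05. The procedure was run on simulated data with the same spread for every gene and no deviating library. Those settings differ from these libraries, so nothing about the calls here is read from it. P-values measure the spread between these libraries. Tables were scaled separately, and other scalings are among the alternatives.

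Depth was the fragment number, with a length offset of 134 to 148 bp, that made 88.2% to 93.0% of low values whole within 0.15 fragments. Other tools were Python 3.11.15, Biopython 1.88 and matplotlib 3.10.9. Named genes were the subunits, SUL1, 3 genes per list by call or by largest difference, the pair members, the 3 closest profiles and the flanking genes, and any other gene was named after its values were seen.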

Additional observations from a re-analysis of the deposited data

How the results depend on the processing

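The MPC3 log2 difference was 1.52 to 1.70 under the scalings, the removal of the length trend and the pseudocount of 0.1. Without each library in turn it was 1.21 to 2.23. For each subunit every knockout library lay above every wild-type library, so leaving out a library could not reverse the direction. For MPC3 the gap between knockout replicate 2 and wild-type replicate 2 was within the counting error. The MPC3 share of its pair differed by 1.62 to 3.51 percentage points without each library in turn and by 2.45 with the length trend removed. MPC2 had 0.16 with the length trend removed, and 0.22 to 0.35 without each library in turn. MPC1 was reversed, at -0.04, with the length trend removed, and had 0.01 with equal FPKM sums, 0.16 with median-ratio scaling and 0.04 to 0.16 without each library in turn.

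Genes called higher and lower numbered 11 and 4. They numbered 4 and 4 with equal FPKM sums, 15 and 4 with median-ratio scaling, 5 and 1 with the length trend removed, and 0 to 298 higher and 0 to 598 lower without each library in turn. The cause was not tested. The highest counts are those without knockout replicate 2. Without wild-type replicate 1 or 2 both counts were 0 (limma, with unadjusted p under 0.05 for 747 and 318 genes), where the single wild-type library left is taken to have the knockout's spread. List genes called numbered 3 higher and 0 lower, 5 higher with median-ratio scaling, and 0 to 13 higher and 0 to 7 lower without each library in turn. Among list genes named, PYC1 turned to -0.06 without wild-type replicate 1 and had 0.72 without wild-type replicate 2.

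With the replicate number as a block, no gene was called, list genes included (0 higher and 0 lower, limma, 399 genes at an unadjusted p under 0.05), and the log2 differences were 0.11, 0.32 and 1.47 for MPC1, MPC2 and MPC3 and 2.13 percentage points for the share. The labels give the number no meaning beyond the replicate. Same-numbered libraries did not deviate together (r = -0.37 for number 1 and -0.43 for number 2, across genes). Across numbers, knockout replicate 2 deviated with wild-type replicate 1 (r = 0.43), and knockout replicates 1 and 3 with wild-type replicate 2 (r = 0.37 and 0.31). As there are 2 wild-type libraries, their deviations mirror each other by construction. What these libraries share across the strains was not tested.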

Other observations

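Some genes of the pyruvate lists differed within a strain by at least as much as MPC3 differed within the wild type. They were picked after their values were seen and no comparison rests on them. ILV5, the acetohydroxyacid reductoisomerase of branched-chain amino acid synthesis, had 569.09, 302.86 and 516.62 FPKM in knockout replicates 1, 2 and 3, against 337.60 and 633.36 FPKM in wild-type replicates 1 and 2. ALD6, the main cytosolic aldehyde dehydrogenase, had 175.70, 140.91 and 210.64 FPKM in knockout replicates 1, 2 and 3, against 89.61 and 228.54 FPKM in wild-type replicates 1 and 2. In both genes, knockout replicate 2 was the lowest knockout library and wild-type replicate 1 the lower wild-type library, and the groups overlapped. MPC3 shared this order within each strain.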
